A study of Rattus norvegicus with 6 samples.

Results

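Airway secretory cells make the proteins of the fluid that lines the conducting airways, and 8 of their product genes were examined in lung RNA of silica-exposed and control rats. They are the secretoglobin genes Scgb1a1, Scgb3a1 and Scgb3a2, the gel-forming mucin genes Muc5ac and Muc5b, the secreted defence genes Bpifa1 and Reg3g, and Agr2, which is needed for mucin folding. The genes were chosen by name, and every probe set annotated to 1 of them alone was taken. Of the 8 genes, 7 had such a probe set, 1 each, among 31042 probe sets and 14217 named genes on the array. No probe set was annotated to a member together with another gene. Scgb3a2 is not analysed here.

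The RNA came from lung tissue of Lewis rats, which are inbred, and each animal had its own array. The 3 silica rats inhaled an aerosol of silica (Min-U-Sil) at 6.2 mg/m3, 6 hours a day, on 5 days of each week, for 6 weeks. The 3 control rats inhaled filtered air in similar chambers. The sources used here do not give the animals' age or sex, the part of the lung taken, or the interval between the last exposure and tissue collection. Values are linear signals, and differences are silica minus control on the log2(signal + 16) scale with their standard error (SE) or 95% interval from limma. Adding 16 understates the change of dim genes. A call means a limma p adjusted over all 31042 probe sets under 0.05.

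Club cells, the non-ciliated secretory cells of small airways, secrete Scgb1a1 (also called CC10 or CCSP) as one of the most abundant proteins of airway fluid. Goblet and other mucous cells add the polymeric mucins, with Muc5b the mucin of resting airways and Muc5ac the mucin that rises in allergic and toxic mucous metaplasia in mice and humans. Bpifa1, also known as SPLUNC1 or PLUNC, is a surfactant-like antimicrobial protein of the nose and large airways. Reg3g is a C-type lectin that binds Gram-positive bacteria and is induced in mouse airway epithelium by interleukins of the IL-17 and IL-22 families.

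The promoters of 3 members are shown because their signals behaved differently across the control arrays: Scgb3a1 and Bpifa1 were low together on 1 array, and Scgb1a1 was not. Sequences are from RefSeq, build GRCr8, and run 5′ to 3′ from 250 bases before to 50 bases after the annotated gene start. Capitals mark matches, on either strand, to TNTTTAC (FOXA factors), CAAGTG (NKX2-1), TTGCNNAA (C/EBP factors) or TATAAA (the core promoter box bound by TBP). No match overlapped another.
Scgb1a1, chr1:215409637-215409936, minus strand: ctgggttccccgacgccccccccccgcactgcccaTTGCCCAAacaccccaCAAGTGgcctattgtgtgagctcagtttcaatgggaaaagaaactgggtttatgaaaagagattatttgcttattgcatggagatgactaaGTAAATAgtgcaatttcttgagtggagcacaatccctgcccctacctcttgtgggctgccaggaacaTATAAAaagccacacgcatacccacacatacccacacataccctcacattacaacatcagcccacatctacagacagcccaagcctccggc
Scgb3a1, chr10:34468916-34469215, plus strand: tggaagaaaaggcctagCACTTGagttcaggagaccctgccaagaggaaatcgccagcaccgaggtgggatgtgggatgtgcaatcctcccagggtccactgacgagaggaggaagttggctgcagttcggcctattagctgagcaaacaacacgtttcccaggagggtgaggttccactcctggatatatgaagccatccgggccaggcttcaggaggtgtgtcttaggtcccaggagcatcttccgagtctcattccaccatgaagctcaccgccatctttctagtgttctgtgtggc
Bpifa1, chr3:163087715-163088014, plus strand: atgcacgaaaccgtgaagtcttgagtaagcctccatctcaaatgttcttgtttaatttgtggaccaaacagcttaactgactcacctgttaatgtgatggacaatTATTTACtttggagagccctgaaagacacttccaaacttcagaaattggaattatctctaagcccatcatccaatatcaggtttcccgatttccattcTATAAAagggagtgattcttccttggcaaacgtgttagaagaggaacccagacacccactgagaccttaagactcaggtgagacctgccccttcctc
The Scgb1a1 window held 4 matches, 1 of each motif. The Scgb3a1 window held 1 match, to the NKX2-1 motif, and the Bpifa1 window held 2, to the FOXA and TBP motifs. Of 33469 rat promoter windows of the same length, 13.3% held TNTTTAC, 14.1% CAAGTG, 10.6% TTGCNNAA and 14.2% TATAAA. The matches describe these letters and were not tested as binding sites. Their relation to the differences between control arrays was not tested either.

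None of the 7 probe sets was called higher or lower in silica, where 0.934% of all probe sets were called higher and 0.145% lower, 1.08% in all. At an unadjusted limma p under 0.05 the count was also 0 of 7, against 17.3% of all probe sets. The groups overlapped for all 7 members, whereas they did not overlap for 25.6% of all probe sets. The median log2 difference of the 7 was -0.13, beside 0.00 over all probe sets, with 5 below 0 and 2 above. The members nevertheless differed among themselves in level, in spread between animals and in how closely the arrays bound the difference.

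**Figure D1:**
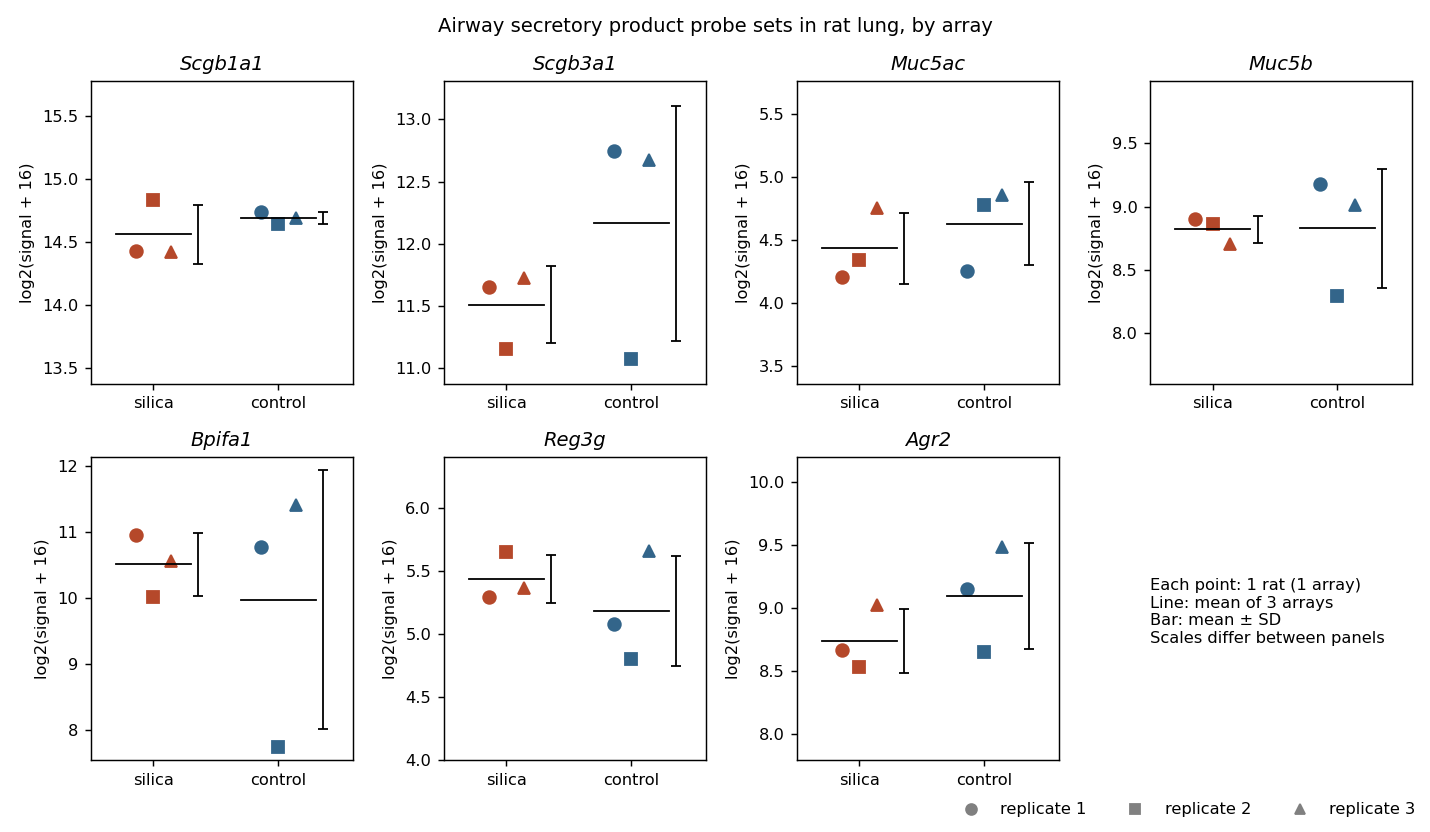
log2(signal + 16) of each of the 7 probe sets on each array (points, 1 rat each; silica left, control right), with the group mean (line) and mean ± SD (bar, n = 3 per group). Silica and control arrays overlap in every panel, and control replicate 2 is the lowest array for Scgb3a1, Muc5b, Bpifa1 and Reg3g.

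Among the secretoglobins, Scgb1a1 gave 22030.7, 29191 and 21932.2 in silica lungs, against 27417.5, 25576.7 and 26385.5 in control lungs. Its highest and 2 lowest arrays were all silica arrays, and the controls lay between them. The log2 difference was -0.13 with a 95% interval of -0.47 to 0.21 (adjusted p = 0.681), so the interval held folds from 0.720 to 1.16. This was the narrowest interval of the 7. The probe set lay near the top of the scale, with 87.2% to 92.9% of the signal of the brightest probe set on the silica arrays and 90.5% to 91.9% on the control arrays. Quantile normalization, which makes the arrays' distributions alike, brought the difference to -0.02. How far a change in abundance would show at this brightness was not tested.

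Scgb3a1, a small secretoglobin of larger airways, gave 3202.6, 2263.1 and 3366.2 in silica lungs, against 6892.4, 2126.8 and 6517 in control lungs. Control replicates 1 and 3 were above every silica array, while control replicate 2 was below all of them. The mean signal was 2944 ± 595 in silica lungs and 5179 ± 2650 in control lungs (SD, n = 3 each). With that spread the log2 difference of -0.65 ± 0.47 (SE) did not pass (adjusted p = 0.528, interval -1.80 to 0.50). Without control replicate 2, a comparison chosen after seeing the data, the difference was -1.20 with an interval of -1.73 to -0.68. It was still not called (adjusted p = 0.132), in a fit in which 1 probe set, 0.00322% of all, was called.

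Of the gel-forming mucins, Muc5b gave 463.1, 449.3 and 400.2 in silica lungs, against 563.7, 296.9 and 498.3 in control lungs. The silica arrays lay close together, inside the range of the controls. The log2 difference was -0.00 with an interval of -0.59 to 0.58 (adjusted p = 0.997), and it changed sign when single arrays were left out, from -0.27 without control replicate 2 to 0.17 without control replicate 1. Muc5ac gave 2.5, 4.3 and 11 in silica lungs, against 3, 11.5 and 13 in control lungs. All 6 signals were below the pseudocount of 16, and by mean log2 value the probe set lay in the dimmest 5.9% of probe sets on the array. Its log2 difference of -0.19 (interval -0.73 to 0.34, adjusted p = 0.696) is therefore compressed, and with a pseudocount of 1 it was -0.55, also not called. The lung RNA thus gave no Muc5ac signal clear of the dim end of the scale in either group with this probe set.

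Among the defence proteins, Bpifa1 gave 1972.8, 1012.3 and 1502 in silica lungs, against 1732.5, 197.8 and 2720.4 in control lungs. The 3 silica arrays lay within 1.95-fold of each other, while the controls spanned 13.8-fold, with control replicate 2 far below the other arrays. The residual SD of 1.43 on the log2 scale was at the 99.9th percentile of all probe sets, and that of Scgb3a1, 0.71, at the 97.7th percentile. The log2 difference was 0.53 ± 0.94 (SE, adjusted p = 0.811), with an interval of -1.76 to 2.82. Without control replicate 2 it was -0.58 (interval -1.45 to 0.29, adjusted p = 0.488), so the sign of the Bpifa1 difference rested on that array.

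Reg3g gave 23.2, 34.2 and 25 in silica lungs, against 17.9, 11.8 and 34.6 in control lungs. It was dim on every array, and the silica arrays lay inside the range of the controls. Its log2 difference was 0.25 with an interval of -0.33 to 0.83 (adjusted p = 0.633). Agr2, a protein disulfide isomerase of the endoplasmic reticulum, gave 391.7, 353.7 and 504.8 in silica lungs, against 553.1, 386.8 and 696.1 in control lungs. Control replicates 1 and 3 were above every silica array, and control replicate 2 lay among them. The log2 difference was -0.35 with an interval of -0.94 to 0.23 (adjusted p = 0.505), and -0.57 without control replicate 2 (interval -1.08 to -0.06, adjusted p = 0.308).

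**Figure D2:**
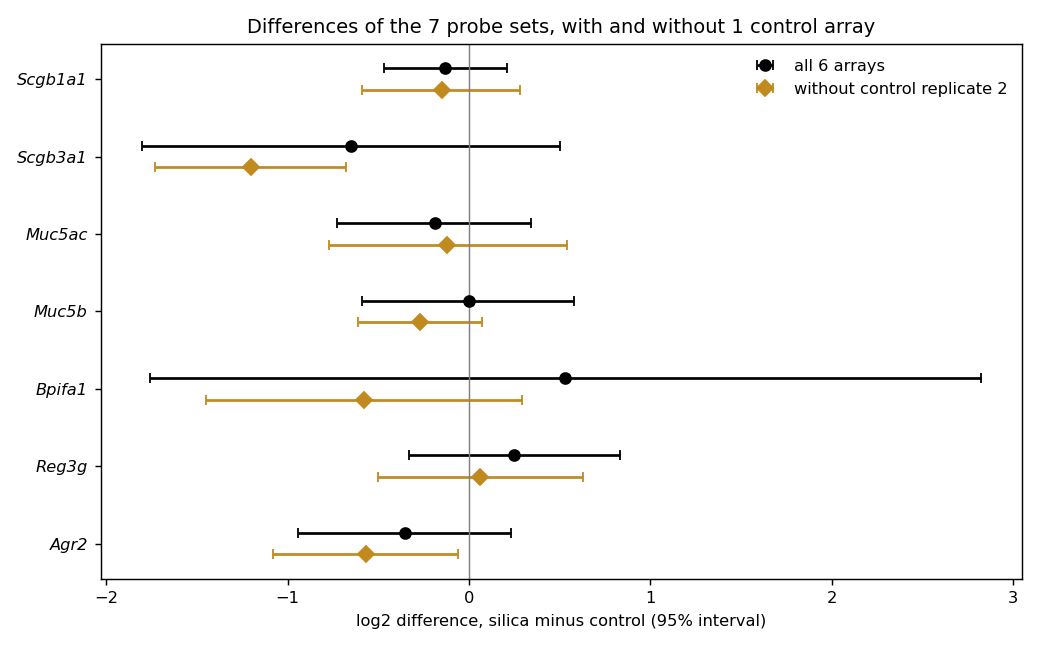
log2 difference, silica minus control, of each probe set (x axis, with 95% interval) with all 6 arrays (black) and without control replicate 2 (amber). With all arrays each interval includes 0. Without that array Scgb3a1 (-1.20) and Agr2 (-0.57) have intervals below 0, neither called after adjustment, and Bpifa1 turns from 0.53 to -0.58.

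Leaving out control replicate 2 put the 3 silica arrays below both remaining controls for 3 members, Scgb3a1, Muc5b and Agr2. Without that array the groups did not overlap for 35.6% of all probe sets, so 3 of 7 is near the background. The median log2 difference of the 7 was then -0.27, beside 0.00 over all probe sets. No member was called, and 2 of 7 (Scgb3a1 and Agr2) had an unadjusted limma p under 0.05, against 14.6% of all probe sets.

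Control replicate 2 stood apart from the other controls in more than the secretory genes. Set against the mean of control replicates 1 and 3, its log2 difference was -3.35 for Bpifa1, and 3 of 31042 probe sets had a lower value. It was -1.65 for Scgb3a1, -0.80 for Muc5b, -0.66 for Agr2 and -0.58 for Reg3g, but -0.07 for Scgb1a1. Cardiac muscle genes, which in rodents are also active in the sleeves of muscle around pulmonary veins, had a summed signal of 3975, 1140 and 2049 in silica lungs, against 4788, 526 and 4282 in control lungs, over 11 of 12 listed markers. Control replicate 2 was below both other controls in 8 of the 11. The myosin genes Myl7 and Myh6, named after their values were seen, were among the lowest there, with 24.6 and 34.1 on control replicate 2. On the other controls Myl7 had 1472.2 and 1287.6, and Myh6 had 1001.4 and 981.7. Of the 4 markers with the smallest p, Tnnt2 and Ryr2 were lower on control replicate 2 than on any other array. Nppa, with 48.6, was higher there than on any other array, and Mybpc3, with 124, lay between the other controls (101.1 and 179.7), as did Myh7.

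Silica replicate 2 had the lowest cardiac sum, Scgb3a1 signal and Bpifa1 signal of the silica arrays, as control replicate 2 had of the controls. Markers of fat cells, 11 of 12 listed, had summed signals of 12442, 12086 and 11781 in silica lungs, against 11868, 9325 and 20418 in control lungs. Lpl alone gave 8783.2, 8984.8 and 9349 of the silica sums and 7081.2, 7322.3 and 8002 of the control sums. As mean log2 value minus the control mean, the list lay at -0.40, -0.55 and -0.93 in silica lungs, against -0.01, -1.04 and 1.05 in control lungs. Of the 11 markers 2 had a log2 difference above 0, and 0 were called. Among the brightest probe sets of all genes 1.55% were called higher and 0.120% lower. The cardiac and fat lists were added after control replicate 2 had been seen to be low in such genes. Ciliated cell markers, 5 of 10 listed, had sums of 2440, 1845 and 2133 in silica lungs, against 2329, 2164 and 2049 in control lungs. Their sum was thus lowest on silica replicate 2, while control replicate 2 lay between the other controls. Basal cell markers, 7 of 7 listed, were dim throughout, with sums of 290 to 362 in silica lungs and 286 to 326 in control lungs. The part of muscle or fat content in the secretory values was not tested.

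**Figure D3:**
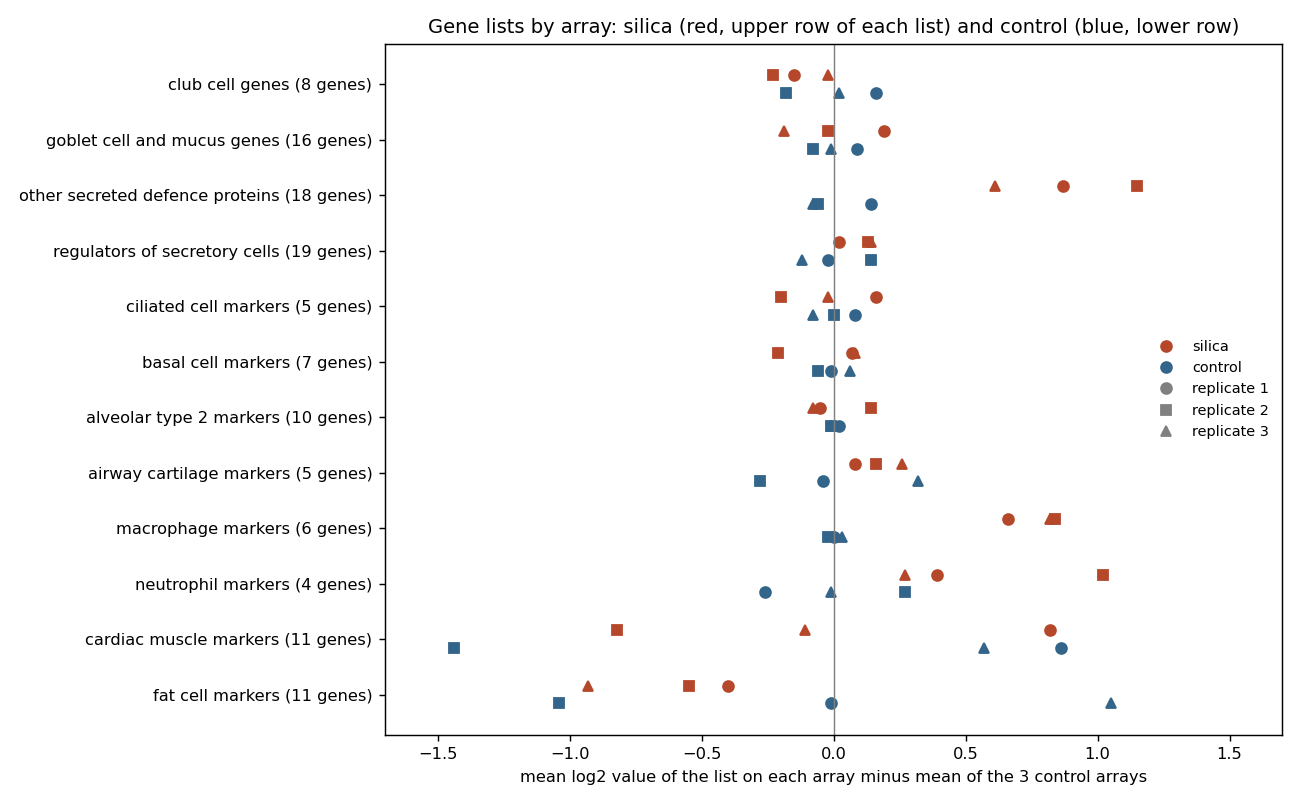
Mean log2 value of each gene list on each array minus the mean of the 3 control arrays (x axis; silica in red above, control in blue below; marker shape gives the replicate). Control replicate 2 lies at -1.44 for cardiac muscle markers and -1.04 for fat cell markers but at 0.00 for ciliated cell markers. The silica arrays lie above all controls for the defence and macrophage lists. The defence list was made with Lpo, Slc26a4, Lcn2 and C3 known from earlier results of these data. Its median log2 difference is 0.21, and 14 of its 18 genes were not called.

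Other genes of club cells were counted from a list of 10, of which 8 were measured by their brightest probe set. Of these 1 rose, 0 fell and 7 were not called, set beside 1.55% higher and 0.120% lower among the brightest probe sets of all genes. The median of the 8 was -0.21. Cldn10, a claudin of club cell junctions, rose to 534.4, 543.9 and 540.5 in silica lungs, against 342.9, 336.2 and 314.5 in control lungs (log2 difference 0.68 ± 0.09 SE, adjusted p = 0.0422). It was not called in any of the 6 fits that leave out 1 array, where its difference ranged from 0.64 to 0.70. Those fits called only 0 to 12 of 31042 probe sets each.

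Cyp4b1, a cytochrome P450 of lung epithelium, gave 7430.8, 7894.8 and 7801.9 in silica lungs, against 11174.3, 10477.9 and 11144.5 in control lungs. The silica arrays were all below the controls, and the log2 difference of -0.50 ± 0.09 (SE) missed the threshold (adjusted p = 0.0773). Cyp4b1 was called lower in 3 of 16 other fits. They were those with the dimmer 50% of probe sets left out (adjusted p = 0.00995), with an intensity trend and robust spread (0.00107) and with pseudocount 64 (0.0234). These fits called more probe sets over all, 1675 of 15521, 1862 of 31042 and 919 of 31042, against 335 of 31042 in the main fit. Fits that did not call Cyp4b1 included the replicate block (0.193) and the RNA quality covariate (0.357). Cyp2f4, the club cell P450 that bioactivates naphthalene, had 1592 ± 255 in silica lungs and 2166 ± 279 in control lungs (SD, n = 3 each; log2 difference -0.44, adjusted p = 0.243). Lypd2 had -0.41 (adjusted p = 0.286). In these 3 genes control replicate 2 was the lowest control, but for Cyp4b1 and Cyp2f4 it was still above every silica array. Over the club cell list, control replicate 2 was below both other controls in 7 of the 8 measured genes. As mean log2 value minus the control mean, the list lay at -0.15, -0.23 and -0.02 in silica lungs, against 0.16, -0.18 and 0.02 in control lungs. In RNA of whole tissue, fewer cells of a type and less RNA per cell cannot be told apart.

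Of 22 listed goblet cell and mucus genes 16 were measured, with a median of -0.06. Of the 16, 0 rose and 0 fell, beside 1.55% higher and 0.120% lower among the brightest probe sets of all genes. The 4 with the smallest p included 2 membrane-bound mucins. Muc1 gave 6096.9, 7008 and 5385.1 in silica lungs, against 4606.2, 4362.5 and 4404.2 in control lungs (log2 difference 0.46, adjusted p = 0.157). Muc4 was dim, with 37.9, 48 and 30.2 in silica lungs, against 21.3, 3 and 7.3 in control lungs (1.09, adjusted p = 0.136). The silica arrays were above the controls for both, and neither was called. Muc1 was called higher in 2 of 16 other fits, with the dimmer 50% left out (adjusted p = 0.0374) and with an intensity trend and robust spread (0.0175). Over all probe sets these 2 fits called 1675 of 15521 and 1862 of 31042, against 335 of 31042 in the main fit. Bcas1 and Gp2 had -0.90 and -0.84 (adjusted p = 0.275 and 0.339), with overlapping groups.

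Of 19 listed further secreted or apical defence genes of airway epithelium 18 were measured, with a median of 0.21. Of the 18, 4 rose and 0 fell, beside 1.55% higher and 0.120% lower among the brightest probe sets of all genes. Lpo, the peroxidase of airway fluid, rose to 1347.6, 2178.7 and 1355.1 in silica lungs, against 12.2, 33.3 and 9.4 in control lungs. Slc26a4, the anion exchanger pendrin, rose to 1145.7, 1130.6 and 952.8 in silica lungs, against 168.1, 133.1 and 124.8 in control lungs. The other 2 were Lcn2, a siderophore-binding protein (log2 difference 1.90, adjusted p = 0.0134), and complement C3 (1.33, adjusted p = 0.0270), and both are also made by cells other than airway epithelium. With 1 array left out, Lpo was called in 2 of 6 fits, Slc26a4 in 1 of 6, and Lcn2 and C3 in 0 of 6. Their differences kept their sign (lowest 5.38, 2.72, 1.77 and 1.21), and those fits called only 0 to 12 of 31042 probe sets each. With the RNA quality covariate none of the 4 was called, in a fit that called 0 probe sets. With the replicate number as a block Lpo alone was called (adjusted p = 0.0218), the 1 probe set called in that fit. Lpo, Slc26a4, Lcn2 and C3 were known from earlier results of these data when the list was made. Whether the list differs from the secretory products was not tested.

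**Figure D4:**
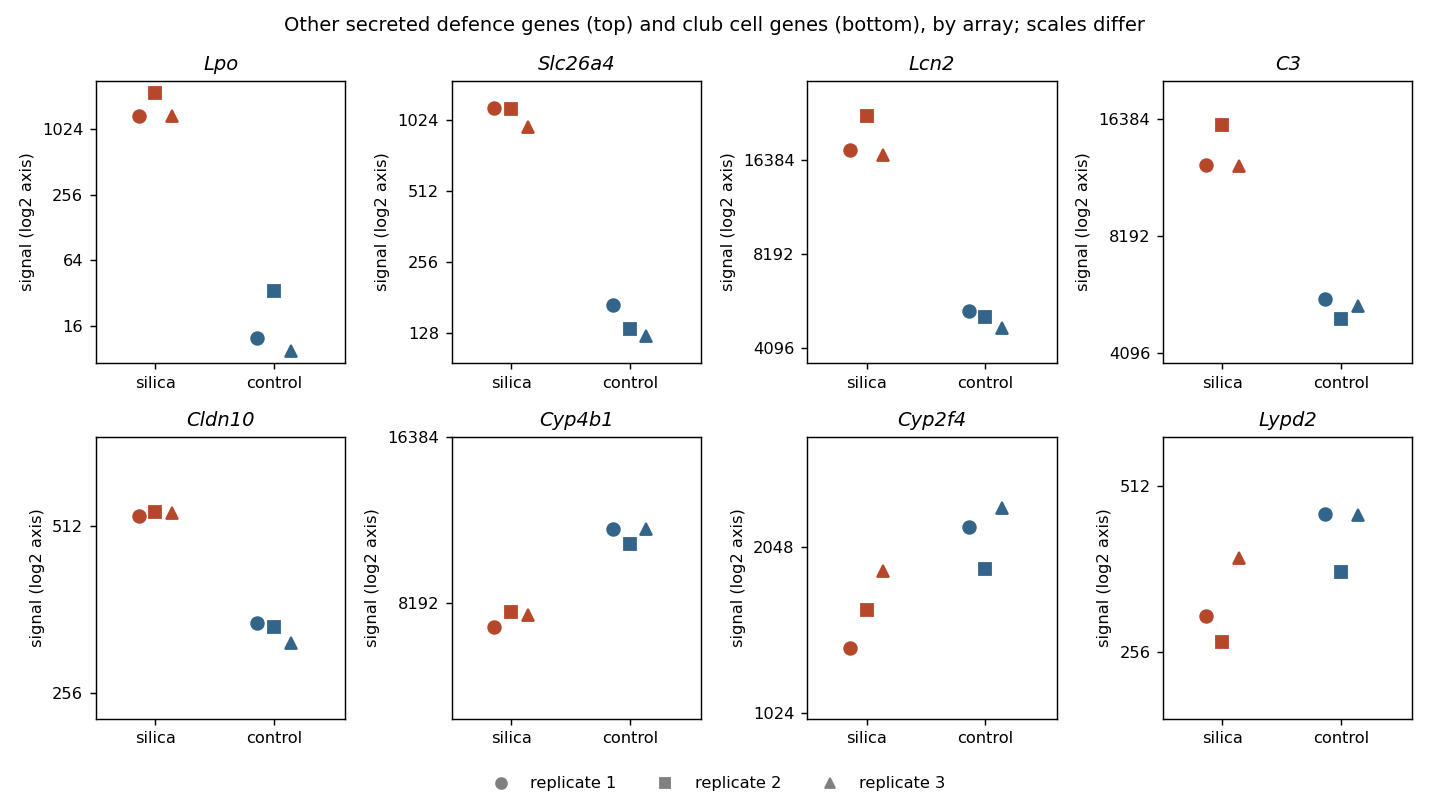
Signal on each array (log2 axis, 1 rat per point, silica left, control right) of the 4 further defence genes (top) and the 4 club cell genes (bottom) with the smallest p of their lists. Lpo, Slc26a4, Lcn2, C3 and Cldn10 lie higher on every silica array than on any control array, Cyp4b1 and Cyp2f4 lie lower, and Lypd2 overlaps.

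Of 23 listed regulators of secretory cells 19 were measured, with a median of 0.02. Of the 19, 0 rose and 0 fell, beside 1.55% higher and 0.120% lower among the brightest probe sets of all genes. The 4 with the smallest p were Il17ra, a subunit of the interleukin 17 receptor (log2 difference 0.56, adjusted p = 0.118), Notch2 (0.92, adjusted p = 0.137), Il1b (0.79, adjusted p = 0.196) and Foxa2 (-0.33, adjusted p = 0.254). With an intensity trend and robust spread Il17ra and Il1b were called higher (adjusted p = 0.0106 and 0.0461), and Il17ra also with the dimmer 50% left out (0.0228). Thus Il17ra was called in 2 of 16 other fits and Il1b in 1 of 16. Both of these fits called more probe sets over all than the main fit, 1862 of 31042 and 1675 of 15521 against 335 of 31042. Foxa2, a transcription factor that restrains mucous metaplasia in mice, gave 1737.7, 2016.8 and 1945 in silica lungs, against 2728.1, 2286.7 and 2203.5 in control lungs, so its groups did not overlap. Macrophage markers moved beside these lists: 4 of 6 measured rose and 0 fell, with summed signals of 16347 to 17903 in silica lungs and 11386 to 11984 in control lungs. Without control replicate 2, 0 of the macrophage markers were called, and the 4 had adjusted p from 0.0834 (C1qa) to 0.132 (C1qb). That fit called only 1 of 31042 probe sets. Of 10 alveolar type 2 markers 0 rose and 0 fell, beside the same 1.55% and 0.120% of all genes, with a median of 0.00. Of 4 neutrophil markers 0 passed, with a median of 0.56, and silica replicate 2 had the highest sum, 15911. Of 5 cartilage markers 1 rose, Comp (log2 difference 0.70, adjusted p = 0.0468). It was not called without control replicate 2 (0.144), again in the fit that called 1 of 31042 probe sets. The cartilage list was dim, with sums of 184, 208 and 209 in silica lungs, against 161, 130.5 and 211 in control lungs. Its lowest sum was thus on control replicate 2.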

How the data were processed

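Lung RNA of 3 silica-exposed and 3 control rats was measured on 1-colour arrays with biotin-labelled cRNA, per the labels' protocols. The deposited values are linear signal intensity values, 1 per probe set and array. The sources used here name no software or filter. With 2% of probe sets trimmed from each end, the arrays' means were 500.14 to 500.15, so the deposited arrays had been brought to a shared level. The sources used here do not say by which steps.

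Names came from the platform annotation, updated by gene identifier to RefSeq (GRCr8) for 20758 of 20826 probe sets with 1 gene. Another 436 had several genes, 9780 were not listed, and 57 array controls were left out. Groups came from the titles. On log2(signal + 16), limma 3.58.1 in R 4.3.3 (lmFit, eBayes) was fitted with group alone (residual degrees of freedom 4, prior 2.18), and p was adjusted over 31042 probe sets by Benjamini-Hochberg. A gene in a list is its brightest probe set. The number of arrays limits the precision, and an exact permutation of 3 against 3 cannot give a p under 0.1. The mean log2 ratio of 3-prime to 5-prime signal of the actin and GAPDH controls was 1.15 to 1.67 in silica and 1.00 to 1.23 in control.

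The members and lists were chosen with earlier results of these data known. Genes named are all members and up to 4 genes with the smallest p of a list, and others are marked as named after their values were seen. The rule also named genes alike in pattern to members that differed by at least 1 on the log2 scale, and 0 members did. The fit was tested on simulated data. Alternatives covered scaling, filtering, pseudocount, spread, array weights, an RNA quality covariate, the replicate number as a block, thresholds and left-out arrays.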

Additional observations from a re-analysis of the deposited data

How the results depend on the processing

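No member was called in any of the 16 other fits, nor in the main fit at an adjusted p under 0.1. At 0.01 the outcome followed from that at 0.05. The lowest adjusted p of a member was 0.132 (Scgb3a1, without control replicate 2). Some of the fits could call no member, as they called 0 probe sets. They were the RNA quality covariate, control replicate 3 and silica replicate 1 left out together, and silica replicate 3, control replicate 1 or control replicate 3 left out alone. The replicate block and the fit without control replicate 2 called 1 of 31042 each. Scgb1a1, Scgb3a1 and Agr2 were below 0 in all 16 fits, and Reg3g above 0 in each of the 15 that kept it. Muc5ac and Reg3g gave no value with the dimmer 50% of probe sets left out. Bpifa1 ranged from -0.58 without control replicate 2 to 1.25 without control replicate 3, Scgb3a1 from -1.20 to -0.36 and Muc5b from -0.27 to 0.17. The sign turned for Muc5ac with the RNA quality covariate (0.16) and without control replicate 3 and silica replicate 1 together (0.03). It turned for Muc5b in that same fit (0.05), without silica replicate 3 (0.06), control replicate 1 (0.17) or control replicate 3 (0.09), and for Bpifa1 without control replicate 2 (-0.58). The causes were not tested.

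Over all probe sets, 290 were higher and 45 lower. The counts were 1044 and 631 with the dimmer 50% left out, 1141 and 721 with an intensity trend and robust spread, 39 and 4 with pseudocount 1, 707 and 212 with pseudocount 64, and 0 and 0 with the RNA quality covariate or with control replicate 3 and silica replicate 1 left out together. At an adjusted p under 0.01 they were 6 and 0, and at 0.1 they were 706 and 214. With 1 array left out, 0 to 12 were higher and 0 lower in each. With the replicate number as a block, 1 was higher and 0 lower. Deviations of same-numbered arrays correlated at 0.09, 0.04 and 0.09, and those of differently numbered arrays at -0.08 to -0.00. No label says that a number marks a pair, and the main fit did not take the numbers as pairs. Whether they mark pairs was not tested.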

Other observations

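The genes most like Bpifa1, Scgb3a1, Scgb1a1, Muc5b and Agr2 over the 6 arrays were sought after their values were seen. The measure was the root-mean-square difference of log2 values centred on the control mean. Candidates were 10279 genes with an established symbol and a mean log2 value of at least 7 in a group. The nearest to Bpifa1 were the cardiac troponin gene Tnnt2 (0.41), the cardiac myosin gene Myh6 (0.53), the fatty acid-binding protein gene Fabp4 (0.62), the mucin-like gene Glycam1 (0.71) and the cardiac myosin light chain gene Myl4 (0.73). Tnnt2 had 446.1, 179.4 and 328.8 in silica lungs, against 408.9, 64.5 and 390.2 in control lungs. The genes nearest to Scgb3a1 were Csrnp3 (0.29), the cardiac calcium-handling genes Casq2 (0.32) and Pln (0.35), Rbp4 (0.35) and S100b (0.36). The genes nearest to Scgb1a1 were Sftpc (0.03), the surfactant protein C gene of alveolar type 2 cells, Fstl3 (0.03), Fmod (0.03), Cnpy4 (0.04) and Rala (0.04). For Muc5b, also low on control replicate 2, they were Dusp19 (0.09), Tatdn1 (0.10), Rab19 (0.12), Syt15 (0.12) and Wt1 (0.12). For Agr2 they were Cyp4a8 (0.04), Yaf2 (0.09), Nsmce4a (0.10), Pou2af3 (0.10) and Tnfrsf11b (0.12). These likenesses describe 6 arrays and were not tested.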
